A study of Mus musculus with 6 samples.

Results

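The enzymes of the tricarboxylic acid (TCA) cycle and Acod1, the enzyme that diverts the cycle towards itaconate, were examined in RAW264.7 cells, a mouse macrophage-like line labelled as wild type, after treatment with SKI-II. SKI-II is a compound that inhibits sphingosine kinases. The 9 members, Cs, Idh3a, Ogdh, Sucla2, Suclg1, Sdha, Fh1, Mdh2 and Acod1, were chosen by gene symbol. Each matched exactly 1 of the 49315 genes counted, and all 9 were among the 12274 genes with enough reads for a test. RNA was sequenced from 3 libraries of cells given 4 μg/mL of SKI-II and from 3 libraries of cells given the DMSO vehicle, all after 24 h and without infection. The labels do not say whether the 3 libraries of a group came from separate cultures. The study's methods refer for the treatment to its qPCR assay, which is described as done in biological replicates, and say in general that experiments were repeated independently, without saying which libraries came from which repeat. The p-values measure only the spread between these libraries, which may be technical.

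The TCA cycle oxidizes acetyl groups in the mitochondrial matrix and passes the electrons to the respiratory chain. Citrate synthase opens it, isocitrate dehydrogenase and the oxoglutarate dehydrogenase complex release carbon dioxide, and succinate dehydrogenase, fumarase and malate dehydrogenase return the carbon to oxaloacetate. In macrophages that respond to bacterial products, Acod1 (also called Irg1) is known to rise and to make itaconate from cis-aconitate, an intermediate of the cycle. Itaconate is known to inhibit succinate dehydrogenase and to modify Keap1, the repressor of Nrf2.

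With SKI-II, 8 of the 9 members fell and none rose. Acod1 fell furthest, to 9.13% of its DMSO level, and 7 TCA enzymes fell to between 46.9% and 73.0%. Suclg1 was the 1 member not called. A gene is said to have fallen or risen when its adjusted p was below 0.05 in the quasi-likelihood test of edgeR, with the Benjamini-Hochberg adjustment made over all tested genes, and by this measure 19.7% of all tested genes fell and 18.4% rose. With a log2 fold change below -1 also required, 3 members (Acod1, Idh3a and Fh1) were called, against 7.44% of all tested genes. In the same 8 members every SKI-II library lay below every DMSO library, which held for 25.5% of all tested genes. The median log2 fold change of the members was -0.77 and that of all tested genes 0.00377. Since the cells were measured in bulk, fewer cells with a transcript and less of it per cell cannot be told apart.

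The libraries held between 12495957 and 20050677 counts, and the share of the 10 most abundant genes was 6.68% to 8.79% with DMSO and 9.08% to 11.1% with SKI-II. No fibroblast, T cell, B cell or epithelial marker of the lists used had enough reads for a test. Over 5 fibroblast markers the summed counts were 8 to 13 in DMSO and 10 to 28 in SKI-II libraries, over 5 T cell markers 1 to 4 and 2 to 6, and over 5 B cell markers 0 to 4 and 5 in each. The 4 epithelial markers had no read. Of 7 macrophage markers, all of them expressed, Adgre1, Lyz2, Itgam and Mrc1 fell, Fcgr1 rose, and Csf1r and Cd68, with log2 fold changes of -0.12 and -0.18, were not called (adjusted p = 0.536 and 0.381 in edgeR's test). The summed counts of the macrophage list were 100998 to 193717 in DMSO and 54240 to 108130 in SKI-II libraries. The part of these differences in the results on the members was not tested.

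The sequence upstream of the start is shown for Acod1, the member that fell furthest, beside those of Sdha and Cs, since the promoter of Acod1 differs in composition from those of the TCA enzymes. The sequences are the 250 bases before the RefSeq start in GRCm38.p6, written 5′ to 3′ on the strand of the gene. Capitals mark matches, on either strand, to a TATA box (TATAAA), a GC box (GGGCGG), the NRF-1 core or the C/EBP core (TTNNGCAA). The windows are chr14:103046762-103047011 on the plus strand, chr13:74350241-74350490 on the minus strand and chr10:128337477-128337726 on the plus strand.
Acod1: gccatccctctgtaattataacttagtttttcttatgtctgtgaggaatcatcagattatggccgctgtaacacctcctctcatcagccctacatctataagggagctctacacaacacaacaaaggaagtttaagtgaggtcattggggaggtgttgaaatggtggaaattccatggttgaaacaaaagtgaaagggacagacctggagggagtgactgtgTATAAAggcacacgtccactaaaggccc
Sdha: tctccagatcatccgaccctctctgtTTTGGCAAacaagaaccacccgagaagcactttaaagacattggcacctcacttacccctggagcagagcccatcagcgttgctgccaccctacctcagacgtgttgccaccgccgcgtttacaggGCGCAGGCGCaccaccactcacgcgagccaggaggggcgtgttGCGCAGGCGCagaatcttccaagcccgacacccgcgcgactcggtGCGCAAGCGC
Cs: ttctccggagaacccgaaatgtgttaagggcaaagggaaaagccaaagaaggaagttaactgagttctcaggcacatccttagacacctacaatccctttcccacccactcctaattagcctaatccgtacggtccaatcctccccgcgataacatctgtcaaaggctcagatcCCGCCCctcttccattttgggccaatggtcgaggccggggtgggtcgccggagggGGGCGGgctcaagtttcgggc

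The counts that follow refer to RefSeq windows of 250 bases before and 50 bases after a start. Where a gene has several, the window nearest to the GENCODE start was used. A window was found for 8 of the 9 members. The member without one was Idh3a, the TCA enzyme with the lowest log2 fold change (-1.09). The Acod1 window held 2 CpG dinucleotides, against 14 (Fh1) to 27 (Mdh2) in the 7 TCA enzymes matched and a median of 7 over all 32817 windows. Acod1 alone of these 8 held a TATA box, 28 bases upstream of the start, a motif found in 13.6% of all windows. GC boxes, in 35.6% of all windows, were found in Cs (3, of which 1 lies after the start and is not shown), Mdh2 (2), Ogdh, Sucla2 and Fh1. The NRF-1 core, in 4.59% of all windows, was found 3 times in Sdha, at 98, 55 and 10 bases upstream of the start, and once in Sucla2. Suclg1, the member not called, held none of the motifs searched. The interferon-stimulated response element core (3.43% of all windows), the ETS core (CCGGAAG, 8.86%) and the E-box (CACGTG, 7.15%) were in none of the 8 windows. The NF-kB site (8.46%) and the antioxidant response element core (TGACNNNGC, 12.4%) were each found once, in Sucla2, and the C/EBP core (10.8%) once, in Sdha. The NF-kB pattern was a strict consensus of 10 bases that opens with GGG. For this site, the interferon-stimulated response element core and the other motifs, shorter or looser forms were not searched. The Sucla2 window lies 27467 bases from the GENCODE start of that gene. A match of these letters describes the sequence and not binding.

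Acod1 (chromosome 14, 103046977 to 103056573 in the GENCODE M21 annotation of GRCm38) was counted 100, 44 and 78 times in DMSO replicates 1, 2 and 3, and 5, 8 and 9 times in the SKI-II replicates in the same order. Normalized counts, that is, counts scaled by TMM to a library of mean size, were 97.1, 55.6 and 77.2 in DMSO and 5.59, 7.63 and 7.33 in SKI-II. The groups did not overlap, and the lowest DMSO library lay far above the highest SKI-II library. The log2 fold change was -3.45 (SE 0.38, 95% interval -4.31 to -2.60, adjusted p = 0.000101 from edgeR's test), from 76.7 ± 20.8 to 6.85 ± 1.10 (SD, n = 3). That is a 10.95-fold lower level, and 27 of the 12274 tested genes, or 0.220%, had a log2 fold change as low as this one or lower. With each library left out in turn it lay between -3.64 and -3.26. Acod1 was the least abundant member per length in both groups, at 29.2 ± 7.92 normalized counts per kilobase of exon in DMSO and 2.61 ± 0.420 in SKI-II (SD, n = 3).

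**Figure D1:**
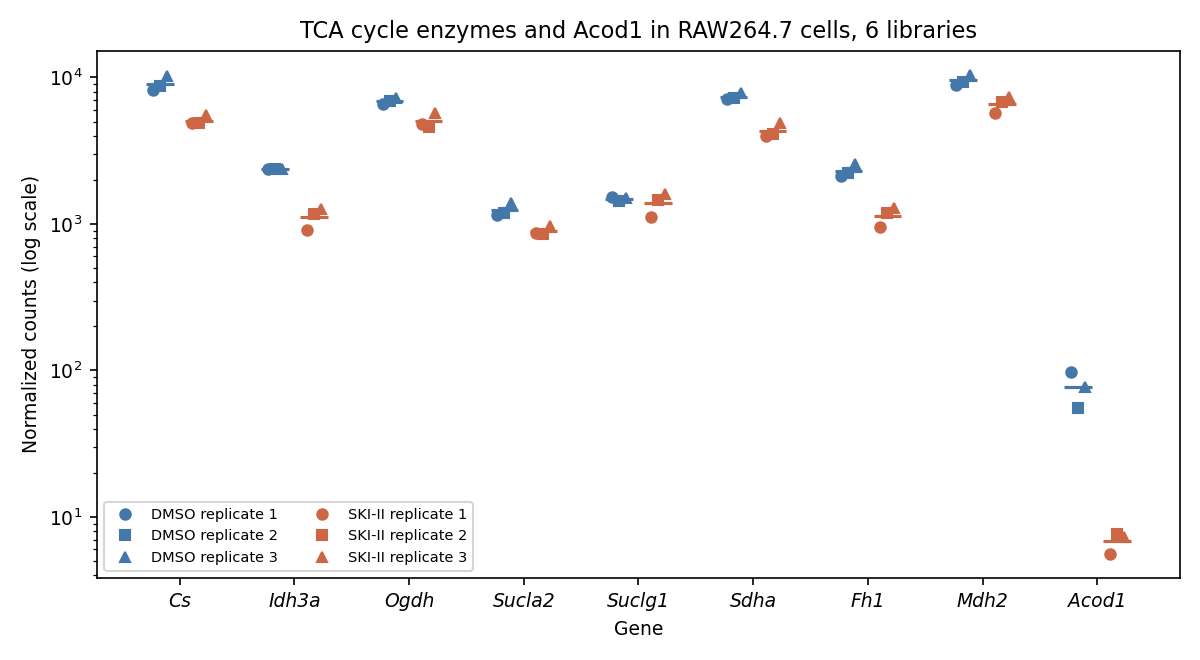
Normalized counts (log axis) of the 9 members in each of the 6 libraries, with circles, squares and triangles for replicates 1, 2 and 3, blue for DMSO, orange for SKI-II, and a short line at each group mean. The SKI-II libraries lie below the DMSO libraries in every gene but Suclg1, and Acod1 moves from 76.7 to 6.85 on average.

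The cycle opens with Cs, citrate synthase, which joins acetyl-CoA to oxaloacetate. Cs (chromosome 10, 128337734 to 128362479) was at 8270, 8752 and 10250 normalized counts with DMSO and at 4870, 4872 and 5506 in SKI-II, with no overlap between the groups. Its mean fell from 9091 ± 1032 to 5083 ± 367 (SD, n = 3), and the fitted log2 fold change was -0.84 (SE 0.13, adjusted p = 0.00109 from edgeR's test).

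Idh3a encodes the catalytic alpha subunit of the NAD-dependent isocitrate dehydrogenase, a regulated step of the cycle. Idh3a (chromosome 9, 54586334 to 54604661) held 2376, 2382 and 2390.3 normalized counts in the DMSO libraries, the narrowest group of any member relative to its mean, and 911, 1172 and 1267 with SKI-II. The highest SKI-II library was well under the lowest DMSO library, and the log2 fold change of -1.09 (SE 0.14, adjusted p = 0.000288 from edgeR's test) was the lowest among the 8 TCA enzymes. The partner subunits Idh3b and Idh3g also fell, by 0.77 and 0.43 on the log2 scale, and Idh3g lost its call without DMSO replicate 2, DMSO replicate 3 or the first SKI-II replicate (adjusted p up to 0.0942 in edgeR's test). The 95% intervals were -1.40 to -0.79 for Idh3a and -0.73 to -0.13 for Idh3g, and a difference between them was not tested.

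Ogdh encodes the first enzyme of the oxoglutarate dehydrogenase complex, which forms succinyl-CoA. Ogdh (chromosome 11, 6291633 to 6356642) was at 6567, 6877 and 7208 normalized counts with DMSO and at 4789, 4566 and 5715 in SKI-II. The groups did not overlap, and the log2 fold change was -0.45 (SE 0.13, adjusted p = 0.0208 from edgeR's test). The call was lost without DMSO replicate 2 (adjusted p = 0.0757) and without SKI-II replicate 2 (adjusted p = 0.0982, log2 fold change -0.39). Of the other 2 parts of the complex, Dlst, the succinyl-transferring core, fell with a log2 fold change of -0.53 (adjusted p = 0.00593 in edgeR's test), while Dld, the dihydrolipoyl dehydrogenase that the pyruvate and branched-chain complexes also use, was at 3735, 4266 and 5018 in DMSO and 3728, 4171 and 5086 in SKI-II. The log2 fold change of Dld was -0.00 with a 95% interval of -0.36 to 0.35, which leaves room for a modest difference in either direction.

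Succinyl-CoA ligase, which makes nucleotide triphosphate from succinyl-CoA and can also activate itaconate, joins a shared alpha subunit (Suclg1) to a beta subunit that makes ATP (Sucla2) or GTP (Suclg2). Suclg1 (chromosome 6, 73248382 to 73276911) was at 1521, 1440.4 and 1507 normalized counts with DMSO and at 1111, 1459 and 1605 in SKI-II. The groups overlapped, since SKI-II replicate 1 lay below the DMSO libraries, replicate 2 among them and replicate 3 above. The log2 fold change was -0.10 (SE 0.15, 95% interval -0.42 to 0.23, adjusted p = 0.637 from edgeR's test), and it was 0.03 without SKI-II replicate 1. Sucla2 (chromosome 14, 73525319 to 73596142) was at 1147, 1188 and 1380.3 in DMSO and at 867, 855 and 974 in SKI-II, with no overlap. Its log2 fold change was -0.46 (SE 0.13, adjusted p = 0.0169 from edgeR's test), and the call was lost without DMSO replicate 3 (adjusted p = 0.0522) and without SKI-II replicate 2 (adjusted p = 0.0720). Suclg2 also fell, by 0.73 on the log2 scale (adjusted p = 0.0172 in the same test), and lost its call without DMSO replicate 2 or either of SKI-II replicates 1 and 2 (adjusted p up to 0.0692).

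Per kilobase of exon, the ratio of Sucla2 to Suclg2 was 0.758, 0.662 and 0.663 with DMSO, and 1.05, 0.877 and 0.680 with SKI-II. The third SKI-II library lay within the DMSO range. The difference of 0.30 on the log2 scale did not pass a two-sided exact permutation test over the libraries (p = 0.2), in which 3 against 3 cannot go below 0.1. The ratio of Suclg1 to Sucla2, added after its values had been seen and given with no test, was 1.15, 1.05 and 0.943 in DMSO and 1.11, 1.47 and 1.42 in SKI-II, and the groups overlapped.

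Sdha encodes the flavoprotein subunit of succinate dehydrogenase, the enzyme that belongs both to the cycle and, as complex II, to the respiratory chain. Sdha (chromosome 13, 74322254 to 74350280) was at 7092, 7235 and 7890 normalized counts with DMSO and at 3988, 4108 and 4897 in SKI-II, with no overlap and a log2 fold change of -0.77 (SE 0.13, adjusted p = 0.00144 from edgeR's test). The membrane anchor subunits Sdhc and Sdhd fell with log2 fold changes of -0.74 and -0.84. The iron-sulfur subunit Sdhb, at -0.43 with an adjusted p of 0.0572 in edgeR's test, was not called, and its 95% interval was -0.78 to -0.07. Sdhb was called as lower without DMSO replicate 1 (adjusted p = 0.0299) or without SKI-II replicate 3 (adjusted p = 0.0184). With all 6 libraries it was also called as lower under library size alone (adjusted p = 0.0386) and with no filter (adjusted p = 0.0274).

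Fh1, fumarase, hydrates fumarate to malate. Fh1 (chromosome 1, 175600374 to 175625635) was at 2131, 2225 and 2574 normalized counts with DMSO and at 950.0, 1183 and 1276 in SKI-II, with no overlap and a log2 fold change of -1.02 (SE 0.14, adjusted p = 0.000493 from edgeR's test). Mdh2, the mitochondrial malate dehydrogenase, closes the cycle. Mdh2 (chromosome 5, 135778480 to 135790398) was at 8885, 9353 and 10449 in DMSO and at 5713, 6832 and 7348 in SKI-II. These groups did not overlap either, and the log2 fold change was -0.53 (SE 0.14, adjusted p = 0.0150 from edgeR's test, and 0.0531 without DMSO replicate 2). The cytosolic malate dehydrogenase Mdh1, with a log2 fold change of -0.21 (adjusted p = 0.229), was not called.

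Summed over the 8 TCA enzymes, the normalized counts were 37989, 39452 and 43648 in DMSO and 23199, 25047 and 28588 in SKI-II. The raw counts behind them are 0.247%, 0.25% and 0.256% of all counts in the DMSO libraries and 0.146%, 0.157% and 0.175% of those of the SKI-II libraries. Within the SKI-II group, replicate 1 was lowest and replicate 3 highest in this sum, as in Cs, Idh3a, Suclg1, Sdha, Fh1 and Mdh2. The DMSO libraries had the same order in the sum and in these genes, except in Suclg1. In DMSO the order by normalized counts per kilobase of exon was Mdh2 (2684), Sdha (1795), Cs (1573), Ogdh (1262), Fh1 (681), Idh3a (470), Suclg1 (323), Sucla2 (311) and Acod1. The libraries of Sdha and Cs overlapped, as did those of Suclg1 and Sucla2, and the other neighbours in this order were apart in every library. With SKI-II the order was Mdh2 (1862), Sdha (1050), Ogdh (921), Cs (879), Fh1 (335), Suclg1 (301), Sucla2 (225), Idh3a (220.1) and Acod1. There, the neighbours from Sdha to Cs overlapped, and so did those from Fh1 to Idh3a. Idh3a thus stood above Suclg1 and Sucla2 in every DMSO library and overlapped Sucla2 in SKI-II.

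The list of 9 other TCA cycle subunits, which share the complexes of the members or act beside them, had 7 that fell, none that rose and 2, Dld and Sdhb, that were not called, with a median log2 fold change of -0.73. Idh2, the NADP-dependent mitochondrial isocitrate dehydrogenase, was lowest, from 3300, 3788 and 4143 normalized counts with DMSO to 1319, 1632 and 1828 with SKI-II and with a fitted log2 fold change of -1.23 (SE 0.15, adjusted p = 0.000219 from edgeR's test). Without DMSO replicate 2, or without SKI-II replicate 1, 5 of the 9 were called. Together with the 8 members, 14 of 17 TCA cycle genes fell and all 17 fitted values were below 0.

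**Figure D2:**
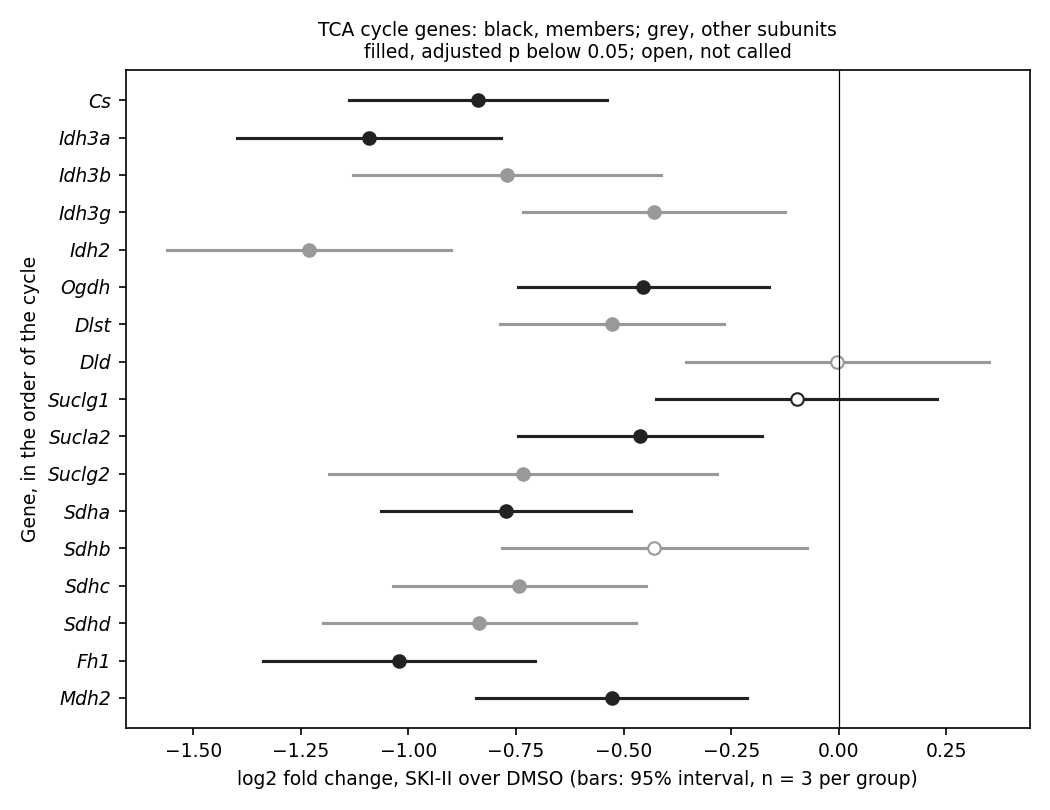
Log2 fold change of 17 TCA cycle genes, SKI-II over DMSO, with bars for the 95% interval (n = 3 per group), in the order of the cycle from top to bottom. The 14 filled points passed the test, and the open points of Dld, Suclg1 and Sdhb did not.

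Genes that feed the cycle or exchange its intermediates were taken from lists written by hand. Of the pyruvate entry list, 13 of 14 genes were tested (Pdk4 had no read), and 5 fell and 1 rose, with a median log2 fold change of -0.39. Dlat, the acetyl-transferring core of pyruvate dehydrogenase, the phosphatase Pdp2 and the carrier subunit Mpc2 fell by 0.64, 0.67 and 0.57 on the log2 scale. Pcx, pyruvate carboxylase, which supplies oxaloacetate from pyruvate, rose from 739, 939 and 1088 normalized counts to 1635, 1496 and 1396, a log2 fold change of 0.71 (SE 0.15, adjusted p = 0.00552 from edgeR's test). Without DMSO replicate 2, or without SKI-II replicate 2, 3 of this list were called as lower.

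Of the list of anaplerosis and metabolite exchange, 16 of 17 genes were tested (Me3 had no read), and 9 fell and 1 rose, with a median log2 fold change of -0.49. The mitochondrial carriers Slc25a10 (dicarboxylate), Slc25a13 (aspartate and glutamate) and Slc25a1 (citrate) had the lowest values, -1.13, -0.98 and -0.94. Me1, the cytosolic malic enzyme and a known Nrf2 target, rose from 747, 757 and 774 normalized counts to 1982, 1713 and 1368, a log2 fold change of 1.15 (SE 0.15, adjusted p = 0.000312 from edgeR's test). Me2, its mitochondrial counterpart, fell by 0.83 on the log2 scale (adjusted p = 0.000535 in the same test); it was named after its values were seen. Of 10 cofactor and assembly factors, 2 fell, a share close to the 19.7% of all tested genes. These were Sdhaf1, an assembly factor of succinate dehydrogenase, and Nfs1, the cysteine desulfurase of iron-sulfur cluster synthesis, with log2 fold changes of -0.74 and -0.54, and the other 8 were not called. Sdhaf1 lost its call without any 1 of DMSO replicates 2 and 3 and SKI-II replicates 1 and 2 (adjusted p up to 0.141), which left 1 gene of the list called as lower each time.

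**Figure D3:**
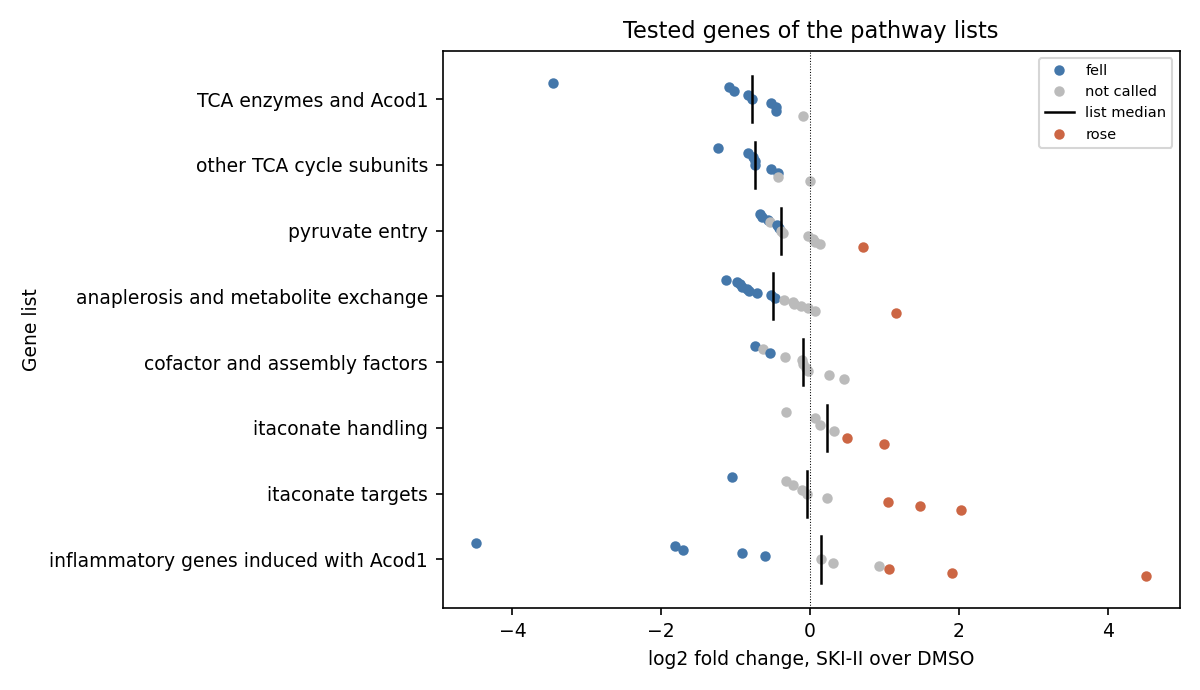
Log2 fold change, SKI-II over DMSO, of every tested gene in the 8 lists, 1 point per gene, blue where it fell, orange where it rose and grey where it was not called, with a vertical line at each list's median. The medians of the members (-0.77) and of the other TCA cycle subunits (-0.73) lie furthest to the left.

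Acod1 is known to be induced with inflammatory genes in activated macrophages, and 11 of 13 such genes were tested. Of these 5 fell and 3 rose, with a median log2 fold change of 0.15. Without DMSO replicate 1, or without SKI-II replicate 1, 3 were called as lower. Cxcl10, an interferon-induced chemokine, fell from 80, 20 and 33 raw counts to 3, 2 and 1, a log2 fold change of -4.49 (SE 0.80, adjusted p = 0.000661 from edgeR's test) that was -3.85 without DMSO replicate 1. Il1rn, the interleukin-1 receptor antagonist, fell by 1.81 on the log2 scale, and the chemokine Ccl5 by 1.71. The groups of Ccl5 overlapped, and its log2 fold change was -2.92 without SKI-II replicate 3. Its call was lost without any 1 of DMSO replicates 1 and 3 and SKI-II replicates 1 and 2 (adjusted p up to 0.152 in the same test). The interferon regulatory factor Irf1 (-0.61), named after its values were seen, fell too, and lost its call without DMSO replicate 1 or either of SKI-II replicates 1 and 3 (adjusted p up to 0.0734).

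In the opposite direction, Ptgs2, which encodes cyclooxygenase-2, rose from 201, 334 and 409.9 normalized counts to 7016, 7451 and 7167, a log2 fold change of 4.52 (SE 0.21, adjusted p = 6.90e-06 from edgeR's test). The co-stimulatory receptor Cd40 and the cytokine Tnf rose by 1.91 and 1.07 on the log2 scale. Nos2, the inducible nitric oxide synthase, was not called at 0.93 (adjusted p = 0.159), and without DMSO replicate 3 it was called at 1.90 (adjusted p = 0.00186 in the same test). With all 6 libraries Nos2 was also called as higher with no filter (0.93, adjusted p = 0.00631). Il6, with no read in DMSO and 4, 0 and 8 in SKI-II, and Il1b, with at most 3 in any library, had too few reads for a test. With no filter on low counts, Il6 was called as higher (adjusted p = 0.0271 in edgeR's test), and no fold is given because every DMSO library is at 0. Beside Acod1, the genes of this list that fell were thus Cxcl10, Il1rn, Ccl5, Irf1 and Sod2, and those that rose were Ptgs2, Cd40 and Tnf.

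**Figure D4:**
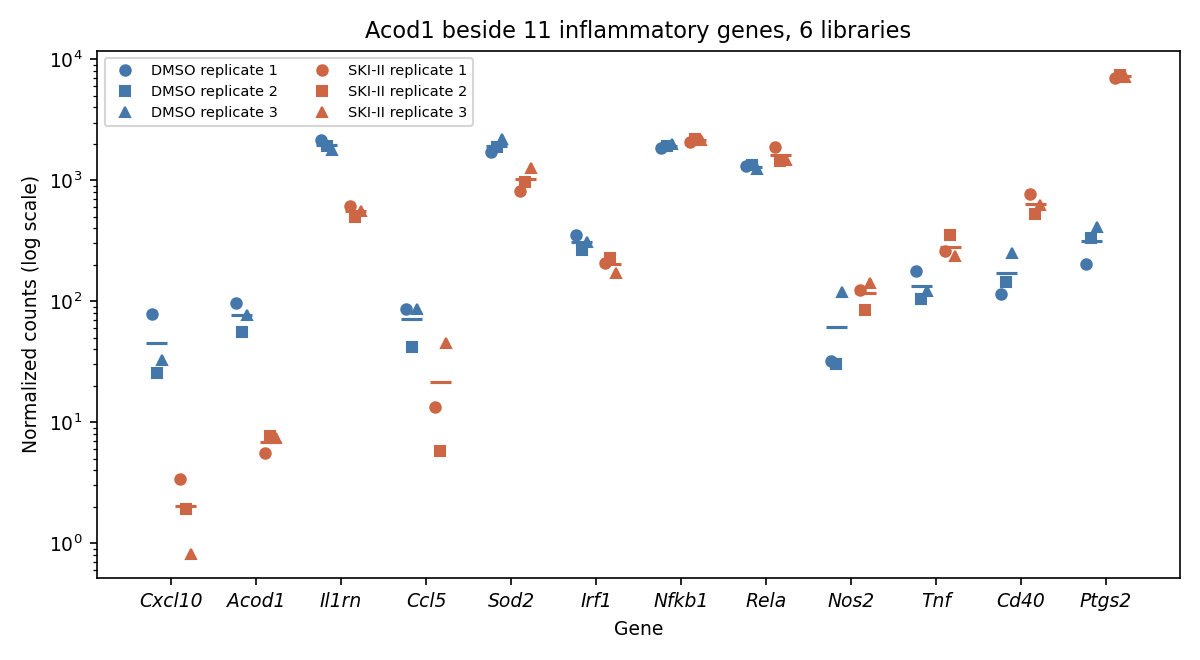
Normalized counts (log axis) of Acod1 and 11 inflammatory genes in each of the 6 libraries, ordered by log2 fold change from left to right, with symbols as in the plot of the members by library. Cxcl10 and Acod1 lie at the falling end, and Ptgs2, at about 7211 on average with SKI-II against 315 with DMSO, at the rising end.

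Genes that handle itaconate were taken as 1 further list. Another held genes of proteins it is known to modify, together with genes of the response to it. Of the 6 handling genes, Lrrk2, a kinase linked to the delivery of itaconate to vacuoles that hold bacteria, rose with a log2 fold change of 1.00 (SE 0.15, adjusted p = 0.000869 from edgeR's test). Hps1, of the complex that activates Rab32, rose by 0.50 (adjusted p = 0.0384), but lost its call without any 1 of DMSO replicates 2 and 3 and the 3 SKI-II replicates (adjusted p up to 0.147). The remaining 4, including Rab32 and Clybl, which clears a breakdown product of itaconate, were not called, although Rab32 was called as higher without DMSO replicate 3 (adjusted p = 0.0201) and Auh, an enzyme of itaconate breakdown, as lower without DMSO replicate 1 (adjusted p = 0.0478). Among 9 target and response genes, Nfkbiz (2.03), Atf3 (1.48) and Nlrp3 (1.05) rose and Tfeb (-1.05) fell. Keap1 was at 1201, 955 and 1035 normalized counts with DMSO and 1147, 959 and 991 in SKI-II, and its log2 fold change of -0.04 had a 95% interval of -0.35 to 0.26. Gapdh, Aldoa and Ldha, glycolytic enzymes that itaconate is known to modify, were not called either, with log2 fold changes of -0.11, 0.23 and -0.22.

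The 5 tested genes whose log2 CPM was most like that of Acod1 over the 6 libraries, by Pearson's r, were Tmem176b (0.999), Naa15 (0.998), Rab7b (0.997), Mmgt1 (0.995) and Lsm2 (0.995). All of these were lower with SKI-II, from -2.20 for Tmem176b to -0.49 for Naa15, and the 6 points behind each r form 2 groups that share these libraries.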

How the data were processed

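Counts of RAW264.7 libraries, 3 with SKI-II and 3 with DMSO, were used, with groups and replicate numbers from the sample titles. The authors made poly(A)-selected libraries and deposited raw counts per Ensembl gene. The submitters' processing notes name Trimmomatic 0.36, STAR 2.5.2b and featureCounts of Subread 1.5.2. Build, annotation and strand setting of the counting: not given in the sources used. The 4 members that overlap another gene (Cs, Sucla2, Sdha and Fh1) share no exon base with it.

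GENCODE M21 named 48970 of 49315 genes and gave positions (GRCm38) and the summed length of all annotated exons, used for values per kilobase. The quasi-likelihood test of edgeR 4.0.16 in R 4.3.3 was run with TMM scaling (factors 0.941 to 1.05), the filter on expression by group (minimum count 10, minimum total 15) and Benjamini-Hochberg adjustment over 12274 genes, which held at least 99.9% of each library's counts. Normalized counts are on the scale of the mean library, 16042438. The common coefficient of variation between libraries was 17.5%. No libraries of a group agreed within sampling noise (chi-square per degree of freedom 15.4 to 58.1). Standard errors use the fitted weights and the moderated dispersion.

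The members, the 7 lists (78 genes) and the tests were chosen with earlier results of these data known. Named genes are the members, the other TCA cycle subunits, the 3 called genes with the largest and smallest log2 fold change in each other list, the macrophage markers and the 5 genes most correlated with Acod1; any other list gene was named after its values were seen. The fits were tested on simulated data. Some genes of the lists are not reported here. Alternatives were DESeq2 1.42.0, limma-voom (limma 3.58.1), RLE scaling, library size alone, no filter, a minimum of 10 counts per library, omission of each library, the replicate number as a block, a log2 fold change past 1 or -1, and a test against 0.5. Promoter sequences are RefSeq's, in GRCm38.p6. Figures were drawn with matplotlib 3.10.9.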

Additional observations from a re-analysis of the deposited data

How the results depend on the processing

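DESeq2, limma-voom, RLE scaling, library size alone and no filter all called the same 8 members as lower, and so did the replicate block (8 of 9, with Acod1 at -3.42). Requiring at least 10 counts in every library removed Acod1 from the test and gave no value for it. Of 382 alternative values for the members, the lists and the ligase ratio, 334 kept their direction and side of the threshold or stayed within 1.5 times the count, 34 counts moved, 13 calls were lost and 1 value changed sign. Among the members, Ogdh, Sucla2 and Mdh2 lost their calls when certain single libraries were left out. Ogdh did so without DMSO replicate 2 or SKI-II replicate 2, and Sucla2 without DMSO replicate 3 or SKI-II replicate 2. Mdh2 did so without DMSO replicate 2. In that fit 14.0% of all tested genes were called lower, and Ogdh and Mdh2 had log2 fold changes of -0.46 and -0.55. DESeq2 called 2452 genes lower and 2375 higher, which is 10.7% and 10.3% of the 22960 genes it tested. The shares in edgeR were 19.7% and 18.4% of 12274. With no filter, edgeR called 11.1% of 22960 genes lower.

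Against a log2 fold change of 0.5, 5 members were called, and Ogdh (-0.45), Sucla2 (-0.46) and Mdh2 (-0.53) were not. Of all tested genes, 8.45% were called as lower and 8.07% as higher by this test. With a log2 fold change past 1 or -1, 3 members were called, and Cs (-0.84), Sdha (-0.77), Ogdh, Sucla2 and Mdh2 were not. Under these 2 rules 1 of the other TCA cycle subunits and 0 of the pyruvate entry and cofactor genes were called lower, and 0 pyruvate entry genes higher. For itaconate handling 1 gene was called higher against 0.5 and 0 past 1, and 1 of the anaplerosis genes lower past -1. The inflammatory genes called lower numbered 3 under both rules, and also 3 with at least 10 counts in every library. Library size alone left 1 itaconate handling gene higher, no filter gave 1 cofactor gene and 5 inflammatory genes higher, and the replicate block gave 1 cofactor gene higher. Of all tested genes, these settings in the same order called 17.8%, 11.4% and 22.5% higher.

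With each library left out in turn, 14.0% to 18.9% of all tested genes were called lower and 12.0% to 17.7% higher. The genes called lower numbered 6 to 8 among the members, 5 to 8 among the other subunits, 3 to 5 for pyruvate entry, 8 to 10 for anaplerosis, 1 to 3 for cofactors, 0 to 1 for itaconate handling, 1 for itaconate targets and 3 to 5 for inflammatory genes. Those called higher numbered 0 to 1 for cofactors, 1 to 2 for itaconate handling and 3 to 4 for inflammatory genes. The log2 fold change lay between -0.92 and -0.75 for Cs, -1.19 and -0.97 for Idh3a, -0.56 and -0.39 for Ogdh, -0.53 and -0.38 for Sucla2, -0.21 and 0.0343 (without SKI-II replicate 1) for Suclg1, -0.87 and -0.72 for Sdha, -1.12 and -0.91 for Fh1, -0.61 and -0.44 for Mdh2 and -3.64 and -3.26 for Acod1. The log2 difference of the Sucla2 to Suclg2 ratio lay between 0.16 and 0.47.

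Whether the replicate numbers pair the libraries cannot be settled with so few libraries. The deviations of same-numbered libraries from their group means correlated at 0.246, 0.00994 and 0.458, and those of the other pairs at -0.462 to 0.296. DMSO replicate 1 correlated best with SKI-II replicate 2, at 0.296. The block raised the calls over all genes from 2413 to 2819 lower and from 2255 to 2765 higher, and with it Sdhb was called lower (adjusted p = 0.00693) and Nos2 higher (1.14, adjusted p = 0.024). The level of Acod1 with SKI-II rests on 5, 8 and 9 counts. The causes of these changes were not tested.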
